A study of Mus musculus with 28 samples.

Results

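The 7 dendritic cell genes described here are Clec9a, Batf3, Flt3, Zbtb46, Cd209a, Itgax and Siglech, taken by symbol from a deposited table of 18182 protein-coding genes. They were read in all 28 RNA sequencing libraries of the series, as counts per 1000000 counts of the library (CPM). The tissue was liver of mice with the genotype c-Myc/Alb-cre transgenic, in which Cre recombinase is driven by the albumin promoter, a promoter active in hepatocytes. Both tissues compared, hepatocellular carcinoma and the tissue around it (peritumour), carry these transgenes, ages are not given in the sources used here, and no liver without the transgenes was used here. The libraries form 4 groups, 11 of tumour labelled Tu_F, 11 of peritumour labelled Pe_F, 3 labelled Tu_M and 3 labelled Pe_M. The labels do not expand F and M. Sample codes join every tumour to 1 peritumour library, and with each code read as an animal there are 14 pairs, 11 of letter F and 3 of letter M. Codes are written in 2 styles, of which F replicates 1 to 3 and all M animals have the first and F replicates 4 to 11 the second, and the meaning of the style was not given in the sources used here.

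Dendritic cells take up antigen, carry it to lymph nodes and present it to T cells. Conventional type 1 cells (DC1) depend on the transcription factor Batf3 and carry the dead-cell receptor Clec9a and the chemokine receptor Xcr1, and they are known for presenting tumour antigen to CD8 T cells. Conventional type 2 cells (DC2) favour CD4 T cells, and plasmacytoid cells (pDC) make type I interferon. Progenitors of all of these carry the receptor Flt3, whose ligand Flt3l drives their growth. Several of the genes are not exclusive to dendritic cells. Itgax (CD11c) is also made by macrophages, Flt3 by early blood progenitors and Zbtb46 by endothelium.

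All coordinates are on GRCm38, as the deposited table gives them. Clec9a (gene ID 232414), the DC1 receptor for actin exposed on dead cells, lies on chromosome 6 at 129408862 to 129424764, inside the span of Clec12b at 129375513 to 129452000. Clec12b itself reached at most 0.323 CPM in any library. Batf3 (381319), a basic leucine zipper factor, lies on chromosome 1 at 191098414 to 191111963. Flt3 (14255), the growth factor receptor, lies on chromosome 5 at 147330741 to 147400489. Zbtb46 (72147), a zinc finger factor of conventional dendritic cells, lies on chromosome 2 at 181371261 to 181494993, where the table's span overlaps Zgpat, Lime1 and Abhd16b. In tumour and peritumour tissue, Zgpat averaged 24.2 and 21.8 CPM and Lime1 13.3 and 12.1 CPM, against 5.00 and 5.35 CPM for Zbtb46. Abhd16b averaged 0.084 and 0.087 CPM. Strandedness was not given in the sources used here, and reads from overlapping genes could not be assigned by strand. Cd209a (170786), a C-type lectin of DC2 and of monocyte-derived cells, lies on chromosome 8 at 3743395 to 3748984. Itgax (16411), an integrin chain, lies on chromosome 7 at 128129530 to 128150657. Siglech (233274), a sialic acid-binding lectin of pDC, lies on the same chromosome at 55768138 to 55778925.

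RefSeq promoters on GRCm38.p6, running from 250 bases before to 50 bases after the annotated start, were matched for all 7 genes. They were searched on both strands for the AP-1-type motif TGANTCA, the kind of site that Batf family dimers bind, and for an ETS and IRF composite motif, GGAA and GAAA with any 2 bases between them. TGANTCA was found in the promoters of Itgax and Zbtb46 and in 7.81% of all 32851 promoters, and the composite motif was found in that of Cd209a and in 2.72% of all promoters. The Zbtb46 entry is an annotated start that lies inside the gene. No match overlapped another. A match is a description of the letters and not a measured binding site. The Clec9a promoter is shown because Clec9a is the gene on which the tissue comparison turns, and those of Itgax and Cd209a because they hold a match, printed in capitals. The Clec9a window is chr6:129408612-129408911 on the plus strand, the Itgax window chr7:128129300-128129599 on the plus strand and the Cd209a window chr8:3748935-3749234 on the minus strand. The capitals begin at position -56 from the start in Itgax and at position -9 in Cd209a.
Clec9a: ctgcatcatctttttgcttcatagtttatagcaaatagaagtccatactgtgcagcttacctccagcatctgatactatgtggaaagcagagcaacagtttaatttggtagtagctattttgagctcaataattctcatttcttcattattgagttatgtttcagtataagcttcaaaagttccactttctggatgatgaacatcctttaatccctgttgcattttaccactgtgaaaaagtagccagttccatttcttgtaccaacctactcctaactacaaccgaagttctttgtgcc
Itgax: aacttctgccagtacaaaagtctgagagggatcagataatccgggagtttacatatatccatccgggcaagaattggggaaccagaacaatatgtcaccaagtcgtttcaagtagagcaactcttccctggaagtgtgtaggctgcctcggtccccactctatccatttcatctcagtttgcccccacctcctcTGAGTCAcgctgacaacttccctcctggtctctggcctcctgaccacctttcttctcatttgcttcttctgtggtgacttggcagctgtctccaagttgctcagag
Cd209a: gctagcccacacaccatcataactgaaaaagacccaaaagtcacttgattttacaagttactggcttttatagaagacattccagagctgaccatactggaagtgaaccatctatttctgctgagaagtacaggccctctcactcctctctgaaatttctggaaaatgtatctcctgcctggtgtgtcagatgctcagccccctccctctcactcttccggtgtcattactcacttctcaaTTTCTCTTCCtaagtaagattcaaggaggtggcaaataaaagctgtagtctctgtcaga

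Each library held between 14777567 and 17576921 estimated counts, a depth at which most of the 7 genes were measured by few reads. Batf3 and Siglech had a median of 9 counts per library each, Cd209a 14.5, Flt3 15 and Clec9a 34, while Zbtb46 had 79.5 and Itgax 187. All 7 passed the filter on low counts. F pairs 2, 5 and 6 stood apart in both tissues by blood cell progenitor genes (Kit, Cd34, Mpo, Elane, Prtn3, Ctsg, Ms4a3 and Gata2), whose summed level was 76.1 to 118.9 CPM in those 6 libraries and 17.5 to 57.0 CPM in the other 22. Results that rest on these pairs are given with and without them. Genes that mark hepatocytes (Alb, Ttr, Apoa1, Apob, Serpina1a, Fgb and Hnf4a) summed to between 21180 and 58960 CPM in every library.

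On a scale corrected for gene length, the authors' deposited TPM (transcripts scaled by their length to a common library total), Itgax was the most abundant of the 7. In peritumour tissue its median was 4.82 TPM (n = 14), followed by Zbtb46 at 1.90, Batf3 at 1.68, Clec9a at 1.41, Cd209a at 0.96, Siglech at 0.645 and Flt3 at 0.59. In tumour the medians were 4.46 TPM for Itgax, 1.67 for Zbtb46, 1.24 for Batf3, 1.07 for Cd209a, 0.96 for Clec9a, 0.445 for Siglech and 0.335 for Flt3 (n = 14). By median, Clec9a and Cd209a thus stood in the opposite order in the 2 tissues. Clec9a lay above Cd209a in 10 of 14 peritumour libraries, and Cd209a above Clec9a in 9 of 14 tumour libraries. The ranges of every pair of neighbours in either order overlapped. Itgax lay above Zbtb46 in 13 of 14 peritumour and 14 of 14 tumour libraries, and Clec9a above Siglech in 13 of 14 tumour libraries.

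The series was designed to compare gene expression within the tumour and beside it. Of the 7 genes, 6 had a lower estimate in tumour and Cd209a did not, though its sign turned in several settings, among them without F pairs 2, 5 and 6, where all 7 estimates were lower. The largest differences were those of the DC1 receptor Clec9a and the growth factor receptor Flt3. Clec9a was at about 0.659 of its peritumour level in tumour, and it was the one gene of the 7 that passed the test, when each tumour was compared with the peritumour tissue of the same animal. In whole tissue, fewer cells of a type and less RNA per cell cannot be told apart.

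Clec9a measured 0.910 CPM in the lowest tumour library, 1.93 at the median and 3.67 in the highest, against 1.03, 2.74 and 7.48 CPM in peritumour tissue (n = 14 each). The groups overlapped, and the 2 highest values of all were the peritumour libraries of F replicates 9 and 11. In these 2 animals Clec9a was 7.48 CPM around the tumour and 2.07 within it, and 6.06 CPM around it and 1.71 within it. Tumour was higher in CPM in F replicates 2, 4, 6 and 7. On the TMM-scaled log2 scale of the pair plot, where TMM corrects for differences in composition between libraries, no pair was above 0.14 and F replicate 2 was at -0.36. Tumour was lower in 10 of 14 pairs, 7 of 11 of letter F and 3 of 3 of letter M. The means were 2.03 ± 0.896 CPM in tumour against 3.19 ± 1.88 CPM in peritumour tissue (SD, n = 14). With the animal as a block, a term that compares libraries within each animal, Clec9a fell by 0.60 ± 0.18 (SE) on the log2 scale, adjusted p = 0.0382 (edgeR's quasi-likelihood test, Benjamini-Hochberg over 14117 genes). Without the block the log2 fold change was -0.74 ± 0.27 (SE) and did not pass, adjusted p = 0.141 (edgeR).

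That single call lies near the share of calls among all genes. With the block, 1 of the 7 genes was called lower and none higher, while 5.91% of all genes tested were called lower, 5.59% higher and 11.5% in either direction. Without the block, none of the 7 was called, against 1.05% of all genes (0.241% lower and 0.808% higher). There 1 of 7 (Clec9a) had an unadjusted p under 0.05 in edgeR, against 18.9% of all genes. With the block 2 of 7 (Clec9a and Flt3) did, against 28.1% of all genes. DESeq2 also called none of the 7 without the block, and with it called Clec9a, adjusted p = 0.012. The median log2 fold change of the 7 was -0.24 without and -0.35 with the block, beside 0.011 and -0.015 over all genes tested. With library size in place of TMM scaling, the blocked split of calls over all genes moved from 48.6% to 62.9% higher.

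The call for Clec9a depended on the processing and on single animals. With the block it was lost under library size alone (adjusted p = 0.0603) and without a filter on low counts (0.0501, edgeR). Leaving out 1 pair at a time in the fit with the block, it was kept in 6 of 14 fits and lost in 8, those without F replicates 1, 5, 8, 9 and 11 and without each of M replicates 1, 2 and 3, with adjusted p from 0.0305 to 0.0799 over the 14 (edgeR). The log2 fold change stayed between -0.66 and -0.50 in these fits. Within the first code style it was -0.52 with the block, adjusted p = 0.561, and within the second -0.66, adjusted p = 0.158 (edgeR). Without F pairs 2, 5 and 6 it was -0.67 with the block, adjusted p = 0.0394 (edgeR). Those pairs were set aside with earlier results of these data known, so that value is a description and supports no call.

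**Figure D1:**
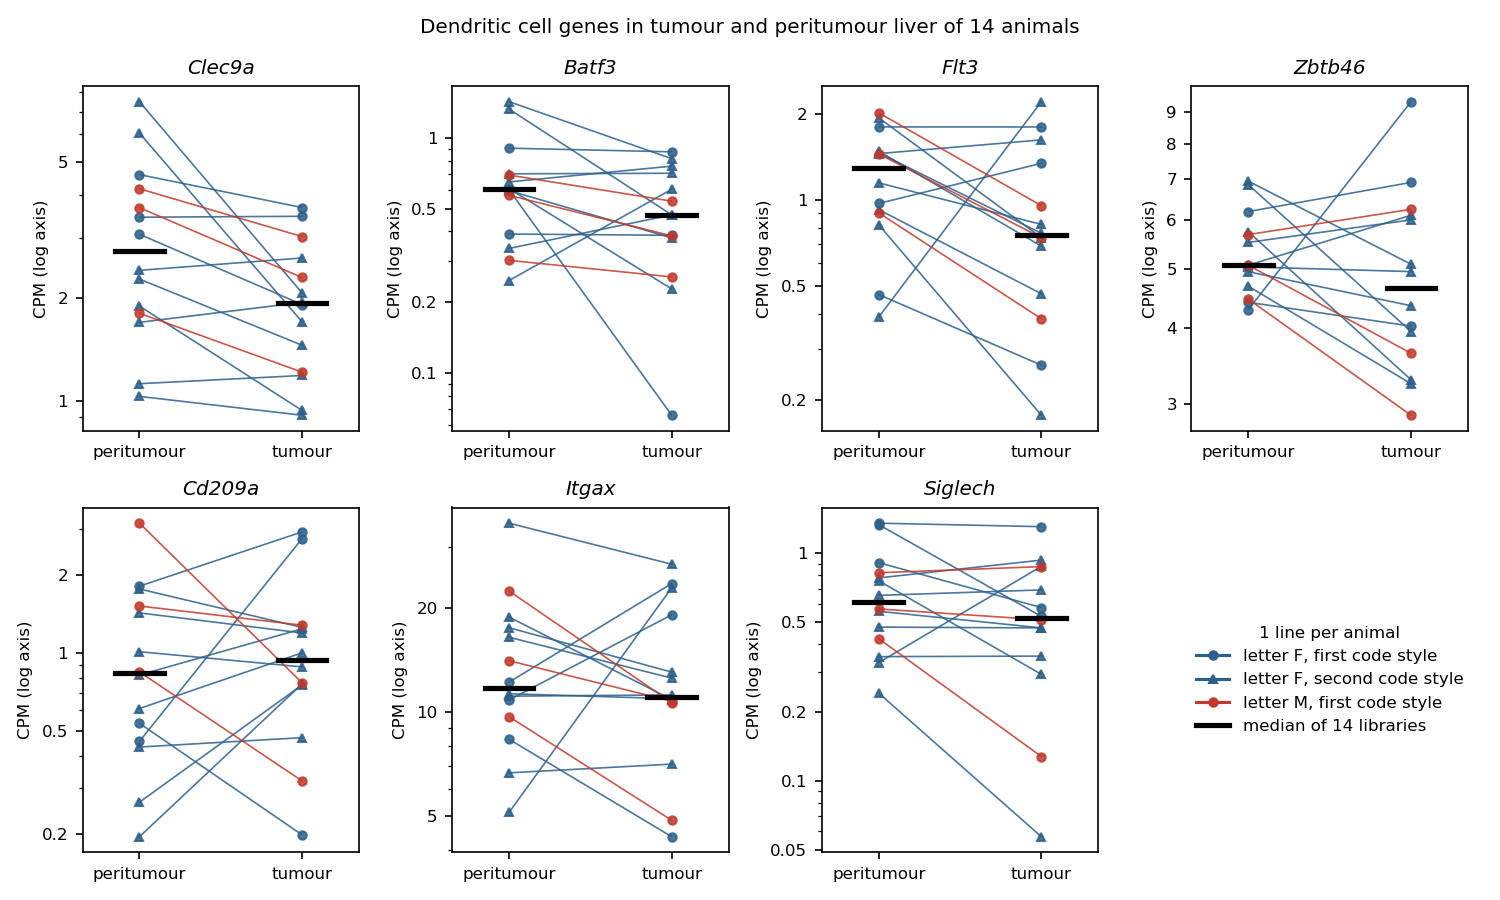
Each panel plots 1 of the 7 genes in CPM on a logarithmic axis, with 1 line per animal from its peritumour to its tumour library and a bar at the median of the 14 libraries of each tissue. Colour gives the letter and marker shape the code style. Most Clec9a and Flt3 lines descend (10 and 11 of 14), while the Cd209a lines divide evenly (7 and 7).

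Batf3, the transcription factor that DC1 need to develop, ranged over 0.0660, 0.470 and 0.872 CPM in tumour (lowest, median, highest) and 0.247, 0.604 and 1.43 CPM in peritumour tissue (n = 14 each). The groups overlapped over most of their range. The lowest library, the tumour of F replicate 1, rested on 1 count. Tumour was lower in 10 of 14 pairs, with means of 0.495 ± 0.236 CPM in tumour against 0.668 ± 0.349 CPM in peritumour tissue (SD, n = 14). The log2 fold change was -0.48 ± 0.29 (SE) without the block, adjusted p = 0.375, and -0.46 ± 0.26 with it, adjusted p = 0.258 (edgeR). Neither estimate passed.

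Flt3, the growth factor receptor, measured 0.176, 0.753 and 2.22 CPM in tumour (lowest, median, highest) and 0.390, 1.30 and 2.03 CPM in peritumour tissue (n = 14 each), and the groups overlapped. Tumour was lower in 11 of 14 pairs, and the 3 pairs in which it was higher were F replicates 2, 5 and 6, the pairs high in blood progenitor genes. F replicate 5 stood out, with 0.390 CPM around the tumour, the lowest peritumour value, and 2.22 CPM within it, the highest value of all 28 libraries. Over all animals the log2 fold change was -0.50 ± 0.30 (SE) without the block, adjusted p = 0.378, and -0.60 ± 0.28 with it, adjusted p = 0.164 (edgeR). Without F pairs 2, 5 and 6 it was -0.97 ± 0.195 (SE) with the block, adjusted p = 0.00951, and without F replicate 5 alone -0.80 ± 0.205, adjusted p = 0.0231 (edgeR). Of the 14 fits that left out 1 pair, that was the only one in which Flt3 passed, and in the other 13 the adjusted p ran up to 0.258 (edgeR). Pairs 2, 5 and 6 were set aside with earlier results of these data known, and the part that progenitor RNA has in the Flt3 values was not tested. The 3 pairs set aside are the 3 in which Flt3 was higher in tumour, so the values without them are a description and support no call.

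Zbtb46, which marks conventional dendritic cells and their committed precursors, varied least between pairs, with an SD of 0.44 for its log2 difference. It measured 2.88, 4.65 and 9.37 CPM in tumour against 4.29, 5.06 and 6.95 CPM in peritumour tissue (lowest, median, highest, n = 14 each). The tumour libraries spread to both sides of the peritumour range, and tumour was lower in 9 of 14 pairs. In edgeR its log2 fold change was -0.17 ± 0.13 (SE) without the block, adjusted p = 0.499, and -0.19 ± 0.13 with it, adjusted p = 0.359 (edgeR).

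Cd209a had the widest spread between pairs, with an SD of 1.04 for its log2 difference, and no common direction. It measured 0.198, 0.940 and 2.93 CPM in tumour against 0.195, 0.832 and 3.16 CPM in peritumour tissue (lowest, median, highest, n = 14 each), nearly the same range. F replicate 2 went from 0.455 CPM around the tumour to 2.76 CPM within it, and M replicate 2 from 3.16 CPM to 0.766 CPM. Tumour was higher in 7 pairs and lower in 7. The log2 fold change was 0.04 ± 0.37 (SE) without the block, adjusted p = 0.966, and 0.10 ± 0.31 with it, adjusted p = 0.869 (edgeR). Without F pairs 2, 5 and 6 it turned to -0.25 without and -0.30 with the block.

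Itgax, the CD11c chain, measured 4.36, 11.1 and 26.8 CPM in tumour against 5.13, 11.8 and 35.2 CPM in peritumour tissue (lowest, median, highest, n = 14 each). The groups overlapped almost fully, and tumour was lower in 9 of 14 pairs. F replicate 5 again moved most, from 5.13 CPM around the tumour to 22.9 CPM within it. The log2 fold change was -0.16 ± 0.26 (SE) without the block, adjusted p = 0.769, and -0.16 ± 0.21 with it, adjusted p = 0.647 (edgeR).

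Siglech, the pDC lectin, measured 0.0569, 0.519 and 1.31 CPM in tumour against 0.243, 0.611 and 1.36 CPM in peritumour tissue (lowest, median, highest, n = 14 each). Tumour was lower in 9 of 14 pairs and the groups overlapped, with the lowest library, the tumour of F replicate 10, at 1 count. The log2 fold change was -0.24 ± 0.29 (SE) without the block, adjusted p = 0.679, and -0.35 ± 0.25 with it, adjusted p = 0.370 (edgeR). In peritumour tissue of letter F, Siglech was at 0.909 to 1.36 CPM in the 3 libraries of the first code style and 0.243 to 0.779 CPM in the 8 of the second. The code styles overlapped elsewhere, at 0.528 to 1.31 CPM against 0.0569 to 0.933 CPM in Tu_F, and the 3 Pe_M libraries, also of the first style, had 0.821, 0.569 and 0.422 CPM.

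The authors' deposited table gives its own values for tumour against peritumour, in columns named for degseq. In the authors' deposited table Clec9a stands at a log2 fold change of -0.68 with a q-value of 8.92e-15, Flt3 at -0.41 with 0.00356, Batf3 at -0.44 with 0.0243 and Itgax at -0.09 with 0.0158. In the same authors' deposited table Zbtb46 (-0.11), Siglech (-0.24) and Cd209a (0.08) have q-values of 0.0960, 0.216 and 0.605. The handling of replicate libraries in those values was not given in the sources used here. The estimates lie near those of the fit without the block, whereas their q-values fall under 0.05 for 4 genes and the adjusted p-values of that fit for none.

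**Figure D2:**
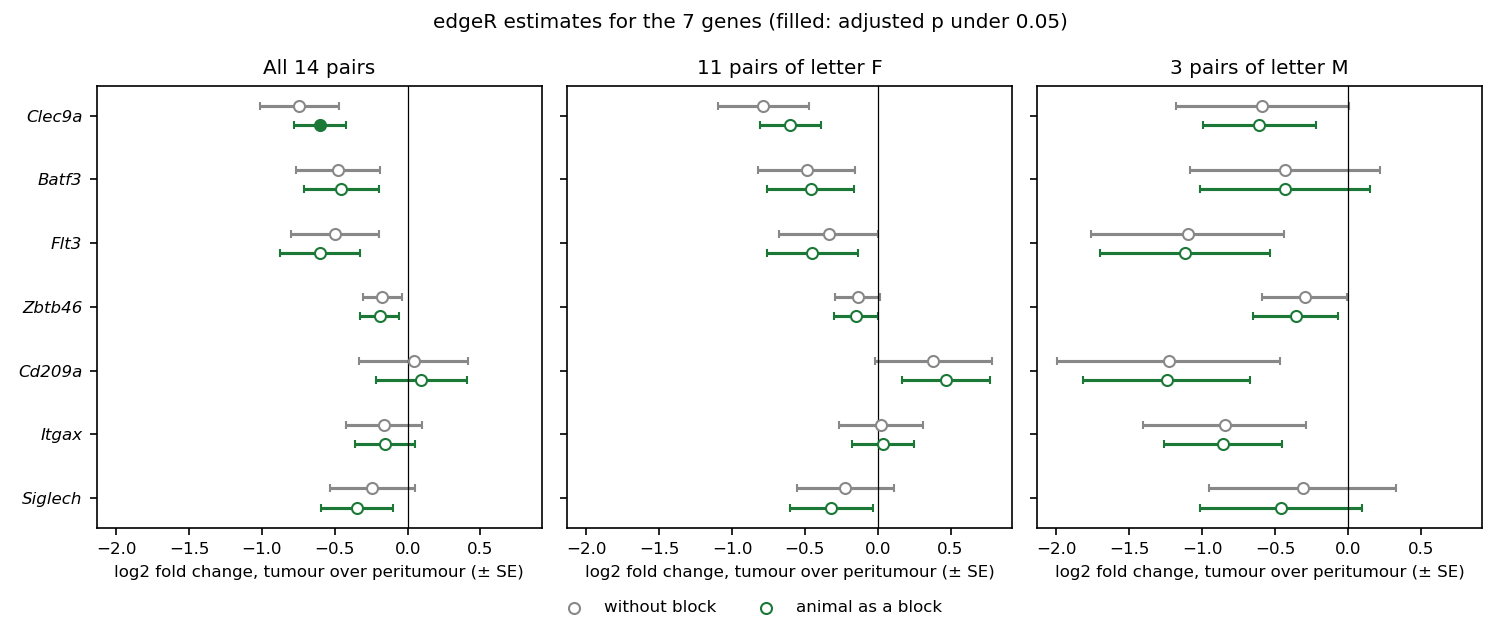
Log2 fold changes of the 7 genes, tumour over peritumour, with standard errors from edgeR, over all 14 pairs, the 11 of letter F and the 3 of letter M. Grey is without and green with the animal as a block, and a filled point has an adjusted p under 0.05, which holds for Clec9a over all pairs with the block (0.0382).

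The pairs differed in how many of the 7 genes moved together. All 7 were lower in tumour CPM in F replicates 1, 10 and 11 and M replicates 2 and 3. In F replicate 5, 6 of 7 were higher in tumour, and in each of F replicates 2, 4 and 6, 5 of 7 were. A list of 8 genes shared by all leukocytes (Ptprc, Coro1a, Cd53, Laptm5, Lcp1, Arhgdib, Rac2 and Cytip) moved with some of these pairs. Its mean log2 difference was -0.57 in F replicate 1, -0.91 in F replicate 11, -0.41 in M replicate 2 and -0.78 in M replicate 3, but 0.02 in F replicate 10. Summed over the list, leukocyte RNA ranged from 205.8 to 643.1 CPM in tumour and from 288.9 to 658.4 CPM in peritumour tissue. None of its 8 genes passed with the block, and its median log2 fold change was -0.13.

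Set against that leukocyte list within each animal, Clec9a was the gene of the 7 that most often lay on 1 side. Its log2 difference lay below the leukocyte mean in 13 of 14 pairs, with a median distance of -0.23, and the exception was M replicate 3. The gap was small in F replicates 1, 4, 6 and 7. Clec9a stood there at -0.59, 0.14, 0.03 and 0.10, beside -0.57, 0.16, 0.10 and 0.14 for the list. Flt3 lay below the leukocyte mean in 11 of 14 pairs and Batf3 in 10 of 14, whereas Cd209a lay above it in 9 of 14 and Zbtb46 in 8 of 14. Ptprc itself (CD45, the common leukocyte phosphatase) lay below it in 10 of 14 pairs and was lower in tumour in 11 of 14, at 18.3 CPM in tumour against 21.5 CPM in peritumour tissue on average, with a log2 fold change of -0.40 ± 0.17 (SE) with the block, adjusted p = 0.125 (edgeR). These are descriptions of 14 pairs with no test. Genes of Kupffer cells, the resident macrophages of the liver, were also lower in tumour. With the block 5 of their 7 fell in tumour, namely Vsig4, Clec4f, Timd4, Folr2 and Marco, none rose, and the list's median log2 fold change was -0.84, beside 5.91% of all genes called lower. Without the block none of the 7 Kupffer cell genes passed, with a median of -0.78. The summed Kupffer list ranged from 99.5 to 628.1 CPM in tumour and from 137.9 to 579.1 CPM in peritumour tissue, with no gene at 0 throughout. The part of these cells in the values of Itgax or Clec9a was not tested.

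**Figure D3:**
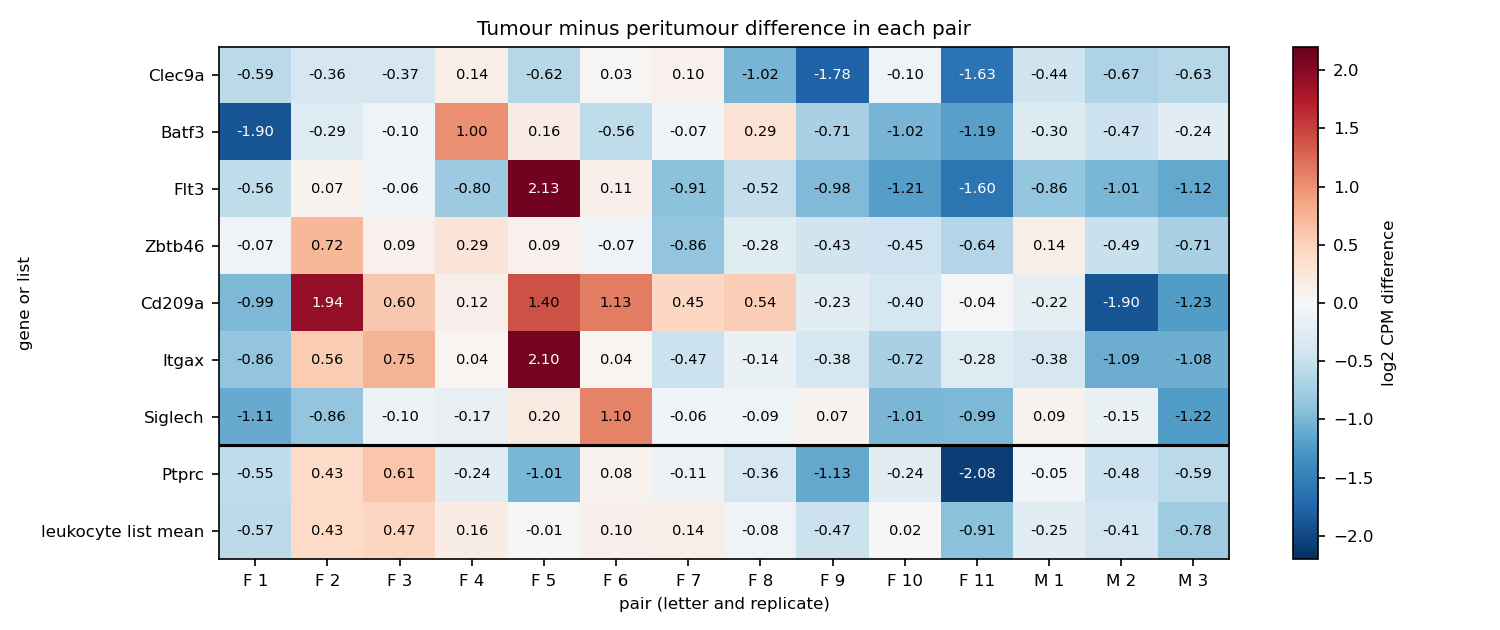
Tumour minus peritumour difference on the log2 CPM scale (TMM scaled, prior count 2) for the 7 genes, Ptprc and the mean of the leukocyte list, 1 column per pair and blue for lower in tumour. Flt3 and Itgax of F replicate 5 are the highest values of the 7 genes (2.13 and 2.10), and Clec9a is negative or close to 0 throughout, with a highest value of 0.14.

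Further genes linked to these cell types were read from 7 lists, and the cell source of their values was not tested. In the DC1 list Id2 averaged 84.3 CPM and Cadm1 28.2 CPM in tumour, against 0.787 CPM for Xcr1. Among 10 DC1 genes, 1 fell with the block and none rose, a share near the 5.91% of all genes called lower and the 11.5% called in either direction, and the list's median log2 fold change was -0.17. The gene that fell was Gcsam, a signalling adaptor of germinal centre B cells that is also used as a DC1 marker, at 0.330 ± 0.295 CPM in tumour against 0.596 ± 0.475 CPM in peritumour tissue (SD, n = 14), lower in 13 of 14 pairs. Its log2 fold change was -0.94 ± 0.29 (SE), adjusted p = 0.0463 (edgeR), and the call was lost in 13 of 14 fits that left out a pair, all but that without F replicate 8. Xcr1, the DC1 receptor for the chemokine Xcl1, was lower in 11 of 14 pairs, at a log2 fold change of -0.59 ± 0.33 (SE) with the block, adjusted p = 0.257 (edgeR). Without F pairs 2, 5 and 6 it was -0.98, adjusted p = 0.0259 (edgeR). Those pairs were set aside with earlier results of these data known, so that value is a description and supports no call. Xcr1 passed in 0 of 14 fits that left out a pair. Irf8, a factor that DC1 and pDC need but macrophages and B cells also make, stood at -0.06 ± 0.10, adjusted p = 0.762 (edgeR).

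Among the 8 tested of 10 DC2 genes, none passed, and the median log2 fold change was -0.023 with the block. In tumour Sirpa averaged 103 CPM and Notch2 83.4 CPM, against 0.905 CPM for Clec10a and 1.04 CPM for Mgl2. The median of the list therefore need not be that of DC2. Irf4, a DC2 transcription factor, stood at -0.13 ± 0.28 (SE) and Clec10a, a DC2 lectin, at 0.02 ± 0.33, adjusted p = 0.786 and 0.982 (edgeR), and Clec10a turned to -0.44 without F pairs 2, 5 and 6. Clec4a4 and Cd209d were too low to be tested. Among the 10 tested of 13 pDC genes, none passed and 10 of 10 estimates were negative with the block, with a median of -0.19. In that fit 7392 of all 14117 genes were negative. So were 8 of 8 genes of the leukocyte list, 10 of 10 of monocytes and macrophages and 6 of 10 of T and NK cells. Bst2, which pDC share with many interferon-exposed cells, stood at -0.03 ± 0.08 and Tcf4, the pDC master regulator, at -0.17 ± 0.13, adjusted p = 0.829 and 0.415 (edgeR). The sign of Bst2 turned with the scaling, from -0.03 under TMM to 0.0071 under library size alone, both with the block.

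Among the 9 genes shared by conventional dendritic cells, 3 fell with the block and none rose, beside 5.91% of all genes called lower. The list's median was -0.23. Without the block 1 fell, beside 0.241% of all genes called lower. Adam23, a surface metalloprotease-like protein, was lower in 14 of 14 pairs, at 7.32 ± 2.94 CPM in tumour against 13.1 ± 4.14 CPM in peritumour tissue (SD, n = 14). Its log2 fold change was -0.89 ± 0.17 (SE) with the block, adjusted p = 0.00433, and -0.87 ± 0.20 without it, adjusted p = 0.0397 (edgeR). Dpp4 (CD26, a peptidase) was lower in 13 of 14 pairs, at -0.72 ± 0.14 with the block, adjusted p = 0.0051 (edgeR). Kmo, an enzyme of tryptophan breakdown named because of the small count and after its value was seen, was lower in 12 of 14 pairs, at -0.57 ± 0.13 with the block, adjusted p = 0.0131 (edgeR). Dpp4 and Kmo are also made by hepatocytes, and their peritumour medians of 93.8 and 206 CPM are far above those of the 7 dendritic cell genes. The cell source of Adam23 in these tissues was not tested. Of the 7 hepatocyte genes, 1 (Alb) fell with the block, and the summed hepatocyte list was lower in tumour in 11 of 14 pairs.

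Among 13 genes for factors that feed and attract dendritic cells and their receptors, 11 were tested. With the block 10 had a negative estimate, beside 7392 of all 14117 genes tested. In that fit 1 gene of the list fell, beside 5.91% of all genes called lower. It was Xcl1, the Xcr1 ligand made by NK and CD8 T cells, at 0.604 ± 0.483 CPM in tumour against 1.08 ± 0.816 CPM in peritumour tissue (SD, n = 14), lower in 13 of 14 pairs. Its log2 fold change was -0.88 ± 0.27 (SE), adjusted p = 0.0412 (edgeR), and the call was kept in 3 of 14 fits that left out a pair, those without F replicates 2, 3 and 4. Flt3l, the Flt3 ligand, was lower in 11 of 14 pairs, at 2.81 ± 1.01 CPM in tumour against 3.83 ± 1.45 CPM in peritumour tissue (SD, n = 14). Its log2 fold change was -0.47 ± 0.16 with the block, adjusted p = 0.0605, and -0.58 without F pairs 2, 5 and 6, adjusted p = 0.0333 (edgeR). The value without those pairs, chosen with earlier results known, is a description and supports no call. Flt3l passed in 2 of 14 fits that left out a pair. None of the 10 genes of T and NK cells passed, and their median log2 fold change was -0.07 with the block.

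Genes of mature and migratory dendritic cells gave no call among 11 tested, with a median of -0.16, and Ccr7, the receptor that guides them to lymph nodes, stood at 0.03 ± 0.27 (SE), adjusted p = 0.96 (edgeR, with the block), and turned to -0.15 without F pairs 2, 5 and 6. None of 10 MHC class II genes passed, with a median of -0.21. Without the block, Adam23 was the one gene of these 7 lists that passed.

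**Figure D4:**
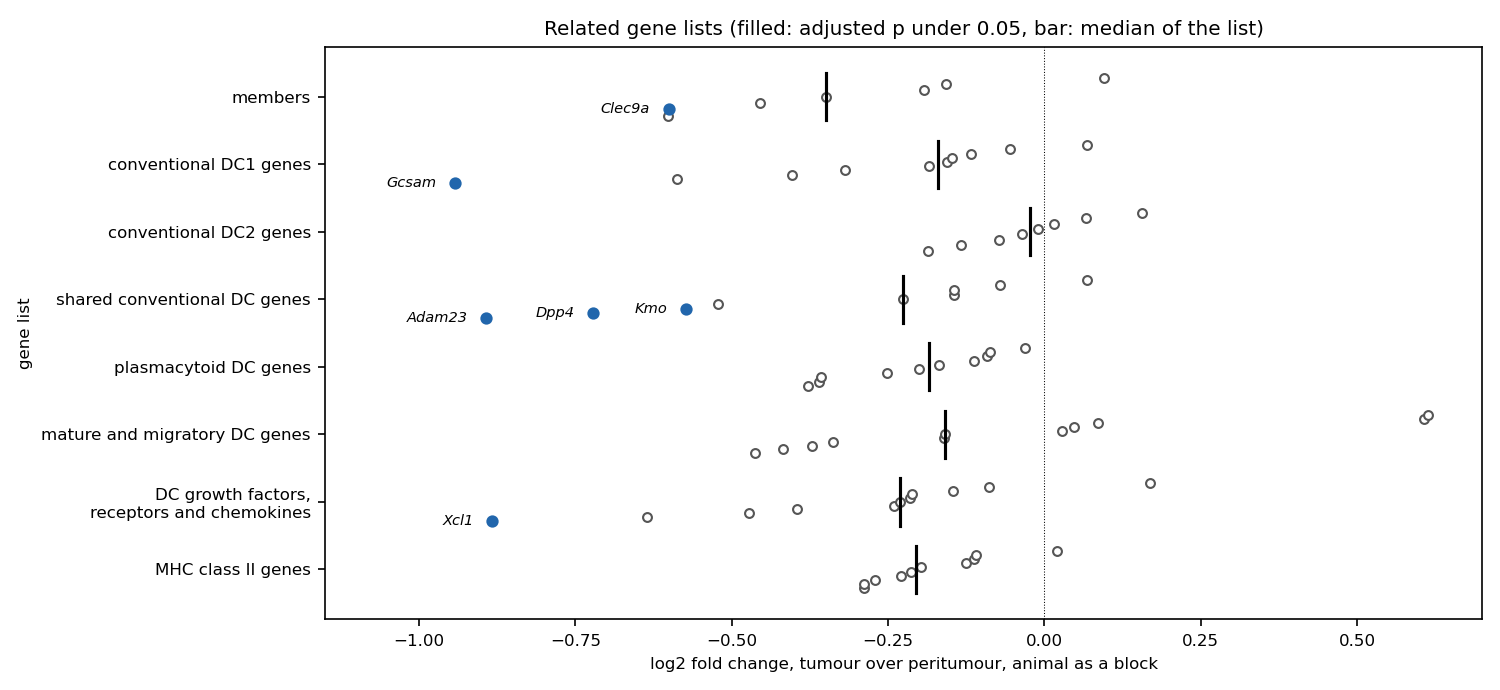
Log2 fold change of each tested gene, tumour over peritumour with the animal as a block, for the 7 dendritic cell genes and 7 related lists, with a bar at each median. Filled points have an adjusted p under 0.05 and all lie below 0 (Clec9a, Gcsam, Adam23, Dpp4, Kmo and Xcl1).

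Within letter F, 5 of the 7 estimates were below 0 and 2 above it. With the block the log2 fold changes of Tu_F against Pe_F were -0.60 ± 0.21 (SE) for Clec9a, -0.46 ± 0.30 for Batf3, -0.45 ± 0.31 for Flt3, -0.32 ± 0.28 for Siglech and -0.15 ± 0.15 for Zbtb46. Itgax stood at 0.04 ± 0.21 and Cd209a at 0.47 ± 0.30. None of the 7 passed, and the nearest was Clec9a, adjusted p = 0.0748 with and 0.187 without the block (edgeR). In this contrast 9.84% of all genes were called with the block (5.23% lower and 4.6% higher) and 0.312% without it (0.0496% lower and 0.262% higher). DESeq2 called none of the 7. In edgeR 1 of 7 had an unadjusted p under 0.05 in either fit, against 17.5% of all genes without and 27.4% with the block. Itgax changed sign without F pairs 2, 5 and 6, to -0.20 without the block, and without F replicate 5 alone, to -0.12.

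Within letter M, all 7 estimates were below 0. Clec9a measured 3.02, 2.30 and 1.22 CPM in the tumours of M replicates 1, 2 and 3 and 4.17, 3.67 and 1.81 CPM in their peritumour tissue. Every animal was lower in tumour, while the groups overlapped. Flt3 measured 0.739, 0.957 and 0.384 CPM in the same tumours and 1.45, 2.03 and 0.903 CPM around them, and Itgax 10.8, 10.7 and 4.86 CPM against 14.1, 22.4 and 9.70 CPM. Both were lower in tumour in 3 of 3 animals, as were Batf3 and Cd209a. With the block the log2 fold changes of Tu_M against Pe_M were -1.24 ± 0.57 (SE) for Cd209a, -1.12 ± 0.58 for Flt3, -0.86 ± 0.41 for Itgax and -0.61 ± 0.39 for Clec9a. None passed, with adjusted p = 0.511, 0.557, 0.518 and 0.617 (edgeR). In this contrast edgeR called 0.0% of all genes with or without the block (574 genes without and 1360 with it were under 0.05 before adjustment). With the block 2 of the 7 (Cd209a and Itgax) were under 0.05 before adjustment, against 9.63% of all genes. Without it 0 of the 7 were, against 4.07%. DESeq2 called 3 genes, none of the 7.

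Cd209a and Itgax had the largest gap between the letters. Cd209a was higher in tumour in 7 of 11 F pairs and in none of the 3 M pairs, and Itgax in 5 of 11 and in none of 3. The test of that gap, the M difference minus the F difference, gave -1.71 ± 0.65 (SE) on the log2 scale for Cd209a, adjusted p = 0.689, and -0.89 ± 0.46 for Itgax, adjusted p = 0.693, with the block (edgeR). Neither passed. Of all genes 0.0% were called by edgeR in that test, with or without the block, and 423 genes without and 1001 with the block were under 0.05 before adjustment. Of the 7, 1 (Cd209a) was under 0.05 before adjustment with the block, against 7.09% of all genes. Without it 0 of the 7 were, against 3.0%. DESeq2 called 1 gene, none of the 7. Several other immune lists had lower medians within M than within F as well. With the block the median log2 fold change within F and within M was 0.15 and -0.43 for the 8 tested DC2 genes, 0.04 and -0.93 for MHC class II genes, -0.12 and -0.50 for DC1 genes, -0.03 and -0.44 for the leukocyte list and -0.15 and -0.59 for genes of monocytes and macrophages, beside -0.014 and 0.011 over all genes. None of the genes of these lists passed in either letter or in the test of the gap. The B and plasma cell list went the other way, with medians of -0.02 within F and 0.29 within M over 6 tested genes. Of these, Cr2 was called lower within F with the block. All M libraries have the first code style, so code style and letter overlap.

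Between letters within a tissue, none of the 7 passed. In tumour, Tu_M against Tu_F, all 7 estimates were below 0 and ran from -0.90 for Cd209a to -0.11 for Batf3, with adjusted p from 0.685 to 0.978 (edgeR). In peritumour tissue, Pe_M against Pe_F, they ran from -0.73 for Siglech to 0.72 for Cd209a, with 4 below and 3 above 0. Of all genes 0.0283% were called in each of these contrasts, and none of the 7 was called by DESeq2. None of the 7 had an unadjusted p under 0.05 in edgeR, against 9.84% of all genes in tumour and 1.52% in peritumour tissue.

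Over the 28 libraries the 7 genes did not form 1 block of correlated values. The highest Spearman rho between 2 of them was 0.651 for Cd209a and Itgax, then 0.608 for Clec9a and Siglech, and the lowest was 0.013 for Itgax and Siglech. Clec9a and Flt3, which had the largest tissue differences, had a rho of 0.111 with each other. These correlations join libraries of the same animals, tissues and code styles and describe these libraries only, and the low counts of Batf3, Siglech, Cd209a and Flt3 limit them.

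The genes most like each member over the 28 libraries were sought among 12900 genes with a mean of at least 1 CPM. For Clec9a they were Arhgap15 (rho 0.888), Nlrp1b (0.86) and Ly96 (0.846), of which Ly96 is the co-receptor of Tlr4 on myeloid cells. For Itgax they were Ppfia4 (0.875), Sh3tc1 (0.867) and Cap1 (0.854), and for Flt3 they included Kirrel (0.86) and Ptgfrn (0.84). Zbtb46 was most like Gimap3 (0.805), Igsf3 (0.76) and Aph1b (0.758), and Batf3 most like Rnase6 (0.774), Itgb7 (0.745) and Tmem110 (0.744). Cd209a was most like Syde1 (0.773), Galnt12 (0.749) and Clip2 (0.745). Siglech had the weakest likeness, to Calm2 (0.727), Pls1 (0.674) and Tiparp (0.661). None of the 7 genes was among the 3 most like another. Batf3 and Siglech could not have been, as their means of 0.581 and 0.629 CPM left them out of the genes compared.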

How the data were processed

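Liver RNA of 28 libraries (14 pairs) was analysed, from total RNA extracted with Trizol, per the labels' protocols. RSEM 1.2.12, DESeq2 1.4.5, Bowtie2 2.2.5 and HISAT2 2.0.4 stand without roles, per the submitters' processing notes. The authors deposited estimated counts per gene, of which 8.06% are not whole, and TPM, per the file headers. The authors' deposited table also holds log2 fold changes and q-values, and 28 further columns of FPKM were not used. After 1 line without a gene ID was dropped, 26 symbols were looked up by gene ID, and 18060 of 18182 IDs matched RefSeq. Totals of 14777567 to 17576921 counts set the precision.

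Counts were rounded and tested with edgeR 4.0.16 (R 4.3.3, filterByExpr leaving 14117 genes, TMM scaling with factors of 0.809 to 1.36, robust quasi-likelihood fit, Benjamini-Hochberg over all genes, threshold 0.05). The main tissue fit had code style and letter as covariates, and the contrasts by letter came from 1 fit of the 4 groups with code style. Steps were tested on simulated data. The standard error is the size of the log2 fold change divided by the root of the F statistic. Because title codes pair the tissues, the fit with the animal as a block is given beside it. Paired libraries' deviations correlated at 0.135 to 0.61 over genes (unpaired median -0.0171), and 10 of 14 tumours correlated best with their own peritumour library. The biological coefficient of variation was 0.27 with and 0.381 without the block. Nothing beyond the codes says that libraries of a group come from separate animals, so p-values measure the spread between these samples. Alternatives were DESeq2 1.42.0, library size alone, no filter, no code style term, each code style alone, leaving out each pair, and leaving out F pairs 2, 5 and 6. The genes named are the 7 members, up to 2 higher and 2 lower genes per related list with the smallest adjusted p, 10 genes always named, and the 3 genes most like each member, of which 1 is not reported here. Members, lists and pairs set aside were chosen with earlier results of these data known.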

Additional observations from a re-analysis of the deposited data

How the results depend on the processing

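Calls among the 7 genes depended on the pairing and on single animals. Without the block none passed in any fit run. The replicate block gave 1 lower member, as did the block with DESeq2, the block without F pairs 2, 5 and 6 gave 2, and leaving out 1 pair at a time gave 0 to 1. Over all genes, calls without the block numbered 148, against 621 with DESeq2, 64 without a filter, 455 without F pairs 2, 5 and 6 and 0 within either code style. With the block they numbered 1624, 0 within the first code style and 981 within the second. Leaving out 1 pair gave 0 to 246 calls without the block, 0 without F replicates 1, 7 and 8 and M replicates 2 and 3, and 899 to 1957 with it. Low counts limit Batf3, Siglech, Cd209a and Flt3, and the cause of the changes below was not tested. None of the following log2 fold changes passed.

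In tumour against peritumour, Bst2 turned to 0.00078 with DESeq2, 0.02 with library size alone, 0.02 without the code style term, 0.0066 without a filter, 0.0071 with the block and library size alone, 0.07 and 0.06 within the second code style without and with the block, and 0.04 and 0.02 without F pairs 2, 5 and 6. Within the first code style Cd209a turned to -0.16 (-0.33 with the block), Ptprc to 0.0035, Tcf4 to 0.11 (0.11 with the block) and Ccr7 to -0.14 with the block. Within the second, Irf4 turned to 0.04 and Irf8 to 0.08 (0.12 with the block), and Irf4 to 0.01 with library size alone. Without F pairs 2, 5 and 6, Cd209a turned to -0.25, Ccr7 to -0.05 and Clec10a to -0.38 without the block, and to -0.30, -0.15 and -0.44 with it. Itgax in Tu_F against Pe_F turned to -0.0024 without the code style term and -0.20 without those pairs, Clec9a in Tu_M against Tu_F to 0.15 without the code style term, and the M minus F difference of Clec9a to -0.0078 with the block and of Siglech to 0.12 without those pairs.

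Leaving out 1 pair at a time, with or without the block, tumour against peritumour ran from -0.10 to 0.27 for Cd209a, -0.06 to 0.05 for Bst2, -0.13 to 0.25 for Ccr7, -0.17 to 0.17 for Clec10a, -0.22 to 0.03 for Irf4 and -0.15 to 0.0041 for Irf8. Tu_F against Pe_F ran from -0.12 to 0.11 for Itgax and Tu_M against Pe_M from -0.71 to 0.02 for Siglech. Tu_M against Tu_F ran from -0.46 to 0.13 for Clec9a, -0.41 to 0.60 for Batf3 and -0.83 to 0.19 for Flt3, and Pe_M against Pe_F from -0.40 to 0.44 for Batf3 and -0.07 to 0.92 for Flt3. The M minus F difference ran from -0.0060 to 0.31 for Clec9a, -0.07 to 0.17 for Batf3, -0.48 to 0.05 for Zbtb46 and -0.49 to 0.24 for Siglech.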
